A study of Mus musculus with 6 samples.

Results

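The genes described here are 10 target genes of the transcription factor p53 that promote cell death: Pmaip1, Bbc3, Bax, Fas, Tnfrsf10b, Perp, Ei24, Trp53inp1, Aen and Zmat3. They were taken from the count table by symbol, as a set proposed with earlier results of these data known, and all 10 were among the 16982 genes of the count table. RNA-seq was done on mouse embryonic fibroblasts (MEF) of strain C57BL/6 on day 3 of reprogramming driven by retroviruses for the OSKM factors (Oct4, Klf4, Sox2 and c-Myc), in 3 WT and 3 Rnf20 knockout libraries, and the question was how loss of Rnf20, a ubiquitin ligase for histone H2B, changes the transcriptome in the first days of reprogramming. In the knockout, floxed Rnf20 was deleted by a ubiquitously expressed, tamoxifen-inducible Cre, switched on with 4-hydroxytamoxifen. The labels call all 6 samples untreated, whether WT cells received the drug is not stated, and both groups carried the same 4 retroviral factors. In the reprogramming protocol, infected MEF are replated on mitomycin C-treated feeder MEF, and whether the RNA held feeder cells is not stated. The labels do not say whether the 3 replicates of a group came from separate embryos or cultures, and the p-values measure only the spread between these libraries, which may be partly technical.

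p53 is kept low in unstressed cells by the ubiquitin ligase Mdm2 and is stabilized after DNA damage or oncogene expression, when it binds its response elements and activates transcription. Some of its targets arrest the cell cycle, and others start apoptosis either at mitochondria, through the BCL2 family, or at the plasma membrane, through death receptors. In reprogramming, the p53 pathway is known as a barrier, because cells in which it is active arrest or die before they become pluripotent.

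The libraries held 20545442 to 20672939 counts in WT and 21172325 to 21746898 in the knockout. Rnf20 itself was at 107, 107 and 106 CPM (counts scaled to library size, with library sizes normalized by the TMM method of edgeR) in WT and at 18.7, 18.5 and 16.4 in the knockout, a log2 fold change of -2.57 (SE 0.0812, adjusted p = 0.000163). Fibroblast markers summed to 30202 to 32985 CPM in WT and to 31925, 39785 and 21666 in the knockout. Of the 10 markers, Thy1 was lower at an adjusted p below 0.01 (log2 -1.11, SE 0.102, adjusted p = 0.00251, at most 0.0273 with 1 library left out) and Pdgfra below 0.05 (log2 -1.22, SE 0.275, adjusted p = 0.0185), with all knockout libraries below WT in both. The fold changes of 6 of the 10 were above 0, and the list median was 0.028 on the log2 scale. In Fn1 and Vim all knockout libraries were above WT. Knockout replicate 3 stood apart from the other two. The chi-square per gene between libraries was 92.4 and 101 for its pairs with knockout replicates 1 and 2, against 8.57 for the pair of those and 6.04 to 8.92 for WT pairs. The Y-linked gene Ddx3y was at 94.4 to 128 CPM in the WT libraries and knockout replicate 2 and at 0 counts in knockout replicates 1 and 3, so the 3 knockout libraries were not all made from the same cells. Endothelial markers summed to 48.4 to 59.0 CPM in WT and 66.9, 53.6 and 32.3 CPM in the knockout, nearly all of it Tek, while Emcn had 1 count over all libraries. Pluripotency markers summed to 0.998 to 2.33 CPM in WT and 0.43 to 0.91 in the knockout.

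Promoter sequence of the RefSeq annotation (GRCm38.p6), from 250 bases before to 50 bases after a transcript start, was at hand for 5 of the 10 genes, in 8 windows of Bax, Bbc3, Aen, Ei24 and Fas. Pmaip1, Tnfrsf10b, Perp, Trp53inp1 and Zmat3 were not searched here. The windows were searched on both strands for the 10-base p53 half-site consensus, of which a full response element holds a pair with a spacer of at most 13 bases. A half-site was found in 4 of the 8 windows, 1 each of Bax and Ei24 and 2 overlapping windows of Aen that hold the same site, and in 2745 of all 32851 windows of the annotation (8.36%). A pair of half-sites within the spacer limit was in 0 of the 8 windows and in 24 windows of the annotation (0.0731%). The windows of these 3 genes are shown 5′ to 3′ in the direction of transcription, because the match can then be seen in its context, with the half-site in capitals. The Bax window spans chr7:45466849-45467148 on the minus strand, that of Aen chr7:78895677-78895976 on the plus strand and that of Ei24 chr9:36797285-36797584 on the minus strand.
Bax: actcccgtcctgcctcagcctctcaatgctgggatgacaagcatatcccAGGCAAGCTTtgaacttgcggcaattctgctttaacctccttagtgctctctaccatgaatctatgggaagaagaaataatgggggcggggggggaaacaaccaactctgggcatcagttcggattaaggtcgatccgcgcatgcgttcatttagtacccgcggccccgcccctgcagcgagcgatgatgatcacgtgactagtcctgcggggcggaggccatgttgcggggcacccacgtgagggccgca
Aen: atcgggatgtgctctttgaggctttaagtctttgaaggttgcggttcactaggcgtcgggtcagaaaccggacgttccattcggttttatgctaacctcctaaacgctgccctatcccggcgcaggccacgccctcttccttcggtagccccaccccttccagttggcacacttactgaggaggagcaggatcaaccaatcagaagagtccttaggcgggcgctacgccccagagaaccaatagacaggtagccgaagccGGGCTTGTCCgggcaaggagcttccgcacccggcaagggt
Ei24: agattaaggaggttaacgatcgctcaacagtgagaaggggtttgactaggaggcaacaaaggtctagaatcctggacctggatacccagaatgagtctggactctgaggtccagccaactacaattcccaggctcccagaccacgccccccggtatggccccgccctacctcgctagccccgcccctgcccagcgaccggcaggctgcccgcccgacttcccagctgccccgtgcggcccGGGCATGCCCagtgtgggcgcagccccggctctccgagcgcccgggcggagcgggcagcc
The half-site lay 201 bases before the start in Bax, 10 bases before it in Ei24 and, in Aen, 10 bases after the start of the window shown and 121 bases before the other annotated start. A match of letters is no evidence of binding, and its absence in Bbc3 and Fas refers to these windows only.

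Of the 10 death-promoting targets, 5 rose in Rnf20 knockout cells at an adjusted p below 0.01, namely Pmaip1, Perp, Trp53inp1, Aen and Bbc3, by 1.98, 1.42, 0.94, 0.87 and 0.60 on the log2 scale. Among all 13386 genes tested, 9.88% passed this threshold, the false discovery rate used in the study, and 4.98% were higher. At an adjusted p below 0.05, Tnfrsf10b, Ei24 and Zmat3 were also higher, which made 8 of 10 against 16.4% of all genes. All 10 fold changes were above 0, as were 50% of those of all genes, and the median log2 fold change was 0.89, against -0.00032 for all genes. None of the 10 was lower by the quasi-likelihood test of edgeR, and 0 were lower at an unadjusted p below 0.05 or by DESeq2, the edgeR exact test or limma. In 9 of 10 genes, all but Bax, the 3 knockout libraries were above all 3 WT libraries, against 26.6% of all genes, while 28.2% of all genes had all 3 below. These are bulk libraries, so that more RNA per cell and more cells that express a gene cannot be told apart.

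**Figure D1:**
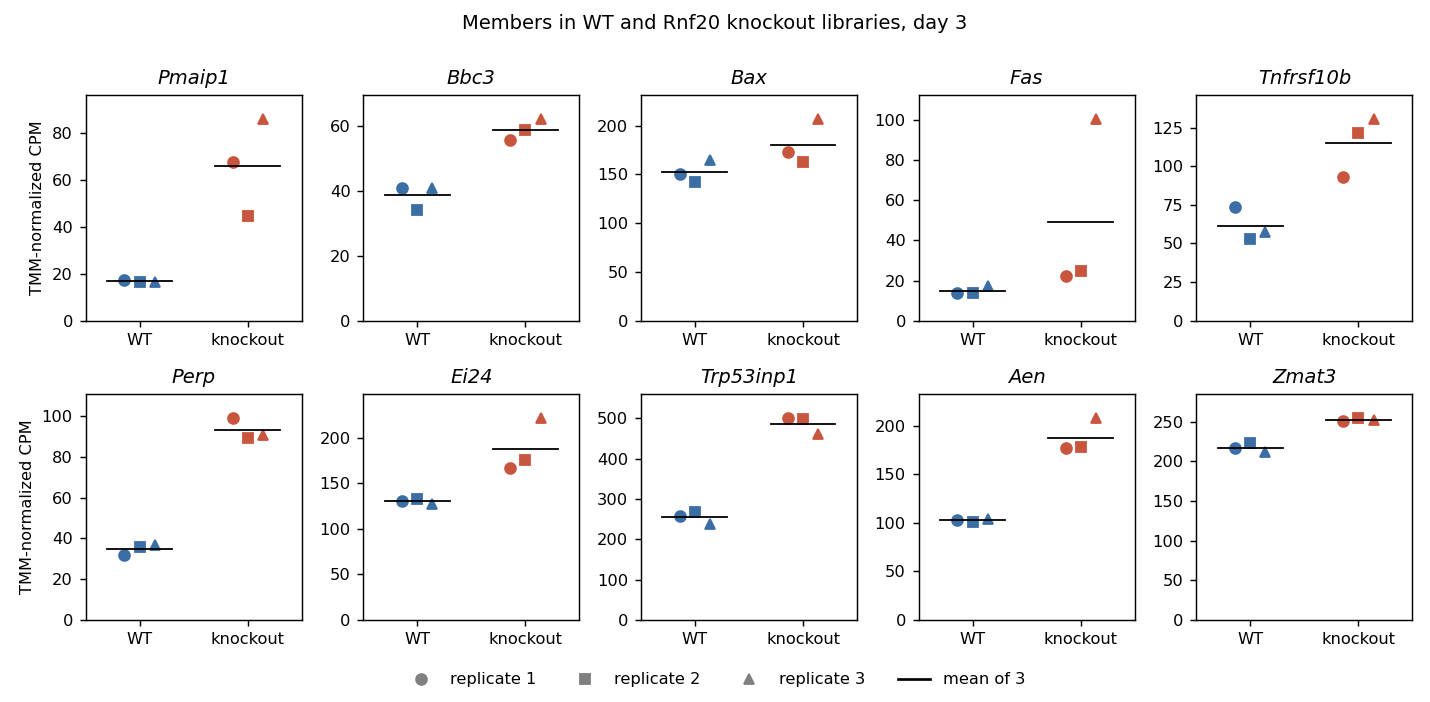
TMM-normalized CPM (vertical axis, from 0, one scale per gene) of the 10 genes in each WT (blue) and Rnf20 knockout (red) library, with the replicate number as the marker shape and the mean of 3 as a line. The groups do not overlap in 9 genes and overlap in Bax, and Fas in knockout replicate 3 lies at 100 CPM, far above the 22.1 and 25.0 of the other knockout libraries.

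The number of calls depended on single libraries. Without WT replicate 1, 2 or 3, 0 of the 10 genes passed 0.01, while 8, 8 and 8 were higher at an unadjusted p below 0.05, and 6, 5 and 5 passed an adjusted p of 0.05. In these fits 2470, 2376 and 2356 of all genes were higher at the unadjusted p, 953, 782 and 694 were higher at an adjusted p below 0.05, and 4, 2 and 1 passed 0.01 in either direction, and 0 genes of the 5 related p53 and death lists described below did. Without knockout replicate 1, 3 of the 10 passed 0.01, Bbc3 and Pmaip1 being lost, and without knockout replicate 2, 2 passed, Bbc3, Trp53inp1 and Aen being lost, where 86 and 55 of all genes were higher. Without knockout replicate 3, 9 of 10 passed, all but Bax, beside 2222 higher and 2263 lower genes among all tested. In a fit with a term for the presence of Ddx3y, where the genotype effect rests on knockout replicate 2 against WT, 0 of the 10 passed 0.01 and Perp, Pmaip1 and Trp53inp1 passed 0.05, while 7 were higher at an unadjusted p below 0.05. Of all 13386 genes, 1 was higher at 0.01, 80 at 0.05 and 1667 at the unadjusted p in that fit. All 10 fold changes stayed above 0 in each of these fits.

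Pmaip1 (Noxa) and Bbc3 (Puma) encode BH3-only proteins, which free or activate the pore-forming members of the BCL2 family at mitochondria, and Bax encodes one of these pore formers. Pmaip1 (ENSMUSG00000024521, chr18:66458533-66465565, plus strand) was at 17.4, 16.3 and 16.6 CPM in WT and at 67.4, 44.6 and 85.8 CPM in the knockout. Every knockout library was above every WT library, and the knockout libraries differed among themselves by 1.92-fold. The means were 16.8 ± 0.530 and 66.0 ± 20.6 CPM (SD, n = 3 each), a 3.93-fold ratio and the largest fold change of the 10 (log2 1.98, SE 0.229, adjusted p = 0.00357). Leaving out 1 library moved the log2 fold change between 1.74 and 2.20, and the adjusted p reached 0.0435 at most over the alternatives, with the Ddx3y term.

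Bbc3 (ENSMUSG00000002083, chr7:16308393-16318205, plus strand) was at 40.9, 34.2 and 40.9 CPM in WT and at 55.7, 58.7 and 62.0 CPM in the knockout. The groups did not overlap, and the knockout libraries lay close together. From 38.7 ± 3.85 to 58.8 ± 3.18 CPM (SD, n = 3), the log2 fold change was 0.60 (SE 0.0964, adjusted p = 0.00739). It ranged from 0.52 to 0.65 when 1 library was left out, and the adjusted p was at most 0.0947 over all alternatives, with the Ddx3y term.

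Bax (ENSMUSG00000003873, chr7:45461697-45466898, minus strand) was at 151, 142 and 165 CPM in WT and at 173, 162 and 207 CPM in the knockout. Here the groups overlapped, since knockout replicate 2 was below WT replicate 3. The log2 fold change was 0.24 (SE 0.110, adjusted p = 0.134) and passed 0.05 in none of the alternatives, with adjusted p from 0.0860 to 0.746. Bax shares 192 exonic bases with Gm45808, a protein-coding gene on the same strand that has no row of its own in the count table. The most alike profile to Bax among 67 p53 and death genes, by Pearson's r of log2 CPM over the 6 libraries, was that of Pidd1 (r = 0.963). Those of Pmaip1 and Bbc3 were closest to Ripk1 (r = 0.987) and Plk2 (r = 0.991). These values describe 6 libraries that share the genotype difference and the distance of knockout replicate 3.

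**Figure D2:**
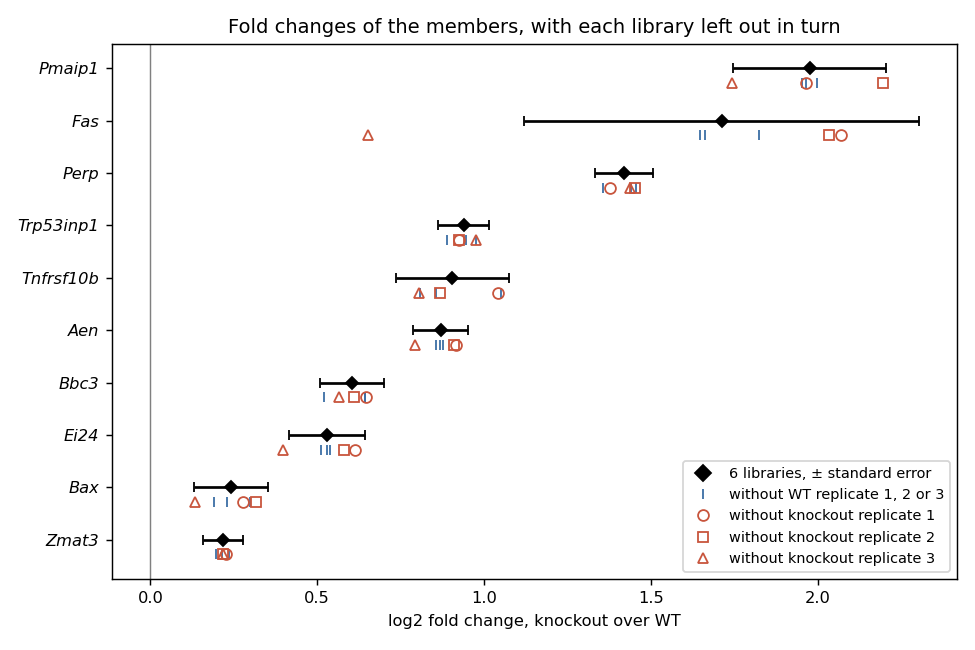
Log2 fold change of Rnf20 knockout over WT (horizontal axis) for each of the 10 genes from all 6 libraries (black diamonds, with the SE of the edgeR fit as bars) and from 5 libraries, leaving a different one out each time (blue ticks for WT, open red markers for knockout). The values run from 0.22 for Zmat3 and 0.24 for Bax to 1.98 for Pmaip1, and Fas has the longest bar (SE 0.591) and falls to 0.65 without knockout replicate 3.

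Fas and Tnfrsf10b encode death receptors of the TNF receptor family, which bind Fas ligand and TRAIL and activate caspase 8 through the adaptor Fadd. Fas (ENSMUSG00000024778, chr19:34290666-34327772, plus strand) was at 13.692, 14.003 and 17.32 CPM in WT and at 22.1, 25.0 and 100 CPM in the knockout. All knockout libraries were above WT, and knockout replicate 3 was 4.56 times as high as replicate 1, the widest spread of any of the 10. With this spread the log2 fold change of 1.71 (SE 0.591) had an adjusted p of 0.0648. Without knockout replicate 3 it was 0.65 (SE 0.119) with an adjusted p of 0.00135, so the size and the call both turned on that library. Calls rose for all genes in that fit, where 4485 of 13529 passed 0.01, against 1322 of 13386 with all libraries. Over all alternatives the adjusted p of Fas ranged from 0.00135 to 0.562.

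Other genes moved in knockout replicate 3 together with Fas. Macrophage markers summed to 249 CPM there, with 159 CPM from Lyz2 and 31.9 from Adgre1, whereas WT libraries had 46.7 to 92.3 CPM, knockout replicate 1 had 78.9 and knockout replicate 2 had 50.4. Each of the 8 markers was higher there than in knockout replicates 1 and 2, but Cd68, at 8.57 CPM, stayed within its WT range of 6.70 to 10.5. Between the groups, 6 of the 8 had fold changes above 0, and Cd68 (log2 -0.23) and Fcgr1 (log2 -0.28) did not. All 8 macrophage markers were tested and 0 passed 0.01 (edgeR quasi-likelihood test and exact test, DESeq2 and limma alike), with 1 at an unadjusted p below 0.05. Of all 13386 genes, 9.88% passed 0.01 by the quasi-likelihood test, and 3016 were higher and 3084 lower at the unadjusted p. The lowest p-values of the 8 were those of Itgam (log2 1.36, adjusted p = 0.0739) and Adgre1 (log2 2.07, adjusted p = 0.142). The profile most like that of Fas was that of Cdkn2a (r = 0.994), the tumor suppressor locus of p16 and p19Arf, at 77.5 to 81.4 CPM in WT and 86.5, 91.1 and 157 CPM in the knockout. The part of macrophage transcripts in the level of Fas was not tested.

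Tnfrsf10b (ENSMUSG00000022074, chr14:69767472-69784411, plus strand) was at 73.4, 53.1 and 57.4 CPM in WT and at 92.7, 121 and 130 CPM in the knockout. The groups did not overlap, although WT replicate 1 and knockout replicate 1 came closest. The increase from 61.3 ± 10.7 to 115 ± 19.7 CPM (SD, n = 3; log2 0.90, SE 0.169) had an adjusted p of 0.0110, just above 0.01, which DESeq2 (1.21e-05) and the edgeR exact test (5.78e-05) put below it. Over all alternatives the adjusted p ranged from 1.21e-05 to 0.0961. Its closest profile was that of Plk2 (r = 0.968).

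The partners of these receptors were counted in the same way. Of 10 genes of the death receptor pathway, from ligands to adaptors and caspases, 8 were tested and 0 passed 0.01 by the quasi-likelihood test, the exact test or limma, while 2 did at an unadjusted p below 0.05 and 1 by DESeq2. With 9.88% of all genes called in either direction, a count of 0 among 8 says nothing particular about this list. Of all 13386 genes, 3016 were higher and 3084 lower at the unadjusted p, and 3597 passed 0.01 by DESeq2. Ripk1, a kinase of the receptor complex, had the lowest p (log2 0.27, SE 0.0651, adjusted p = 0.0231), followed by Fadd (log2 -0.32, SE 0.120, adjusted p = 0.0804). Without knockout replicate 3, 2 passed, where 4485 of all 13529 genes passed. The ligands were at the limit of detection, with 4 counts of Fasl in knockout replicate 3, 1 count of Tnfsf10 in WT replicate 3 and 0 counts in all other libraries.

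Perp and Ei24 encode membrane proteins, a tetraspan protein of the plasma membrane and desmosomes and a protein of the endoplasmic reticulum. Perp (ENSMUSG00000019851, chr10:18845020-18857073, plus strand) was at 31.9, 35.9 and 36.6 CPM in WT and at 98.9, 89.2 and 90.9 CPM in the knockout. The groups were far apart relative to their spread, and knockout replicate 3 was not the highest. The means were 34.8 ± 2.55 and 93.0 ± 5.20 CPM (SD, n = 3), the log2 fold change 1.42 (SE 0.0866, adjusted p = 0.00153), and its p ranked 9 of 13386. It moved between 1.36 and 1.45 when 1 library was left out, with an adjusted p of at most 0.0252.

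Perp is also expressed in epithelia. Epithelial markers summed to 54.6 to 58.4 CPM in WT and to 77.0, 53.6 and 21.8 CPM in the knockout, where Krt19 alone gave 43.2, 29.7 and 18.4 CPM. The other 4 tested markers had fold changes below 0, and Epcam, Krt8 and Krt18 were below WT in all 3 knockout libraries. Of the 5 tested, 0 passed 0.01 by the quasi-likelihood test or limma, with 3 at an unadjusted p below 0.05, and DESeq2 and the exact test each called 1. Of all 13386 genes, 3016 were higher and 3084 lower at the unadjusted p. DESeq2 called 3597 and the exact test 2905. The lowest p-values of the 5 were those of Krt19 (log2 1.14, adjusted p = 0.0274) and Krt18 (log2 -1.30, adjusted p = 0.0646), and their part in the level of Perp was not tested.

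Ei24 (ENSMUSG00000062762, chr9:36779159-36797393, minus strand) was at 131, 132 and 128 CPM in WT and at 167, 175 and 221 CPM in the knockout. The WT libraries were nearly equal, and all knockout libraries were above them, replicate 3 most. The log2 fold change of 0.53 (SE 0.114) had an adjusted p of 0.0164, and without knockout replicate 3 it was 0.40 with 0.000192, the lowest over the alternatives, which reached 0.186. Without that library, 4485 of all 13529 genes passed 0.01. Ei24 shares 324 exonic bases with the antisense gene Gm26787, and whether the counting used strand is not stated, so reads there cannot be told apart. Perp was most like Trp53inp1 (r = 0.984) and Ei24 most like Phlda1 (r = 0.983).

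Trp53inp1, Aen and Zmat3 act in the nucleus or on RNA. Trp53inp1 encodes a stress protein that enhances the activity of p53 and takes part in autophagy. Trp53inp1 (ENSMUSG00000028211, chr4:11156431-11174379, plus strand) was at 258, 268 and 237 CPM in WT and at 500, 499 and 463 CPM in the knockout. The groups were far apart, and knockout replicate 3 was the lowest of the knockout libraries. From 254 ± 15.6 to 487 ± 21.5 CPM (SD, n = 3), the log2 fold change was 0.94 (SE 0.0776, adjusted p = 0.00185), between 0.89 and 0.98 with 1 library left out, and the adjusted p was at most 0.0463 over the alternatives.

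Aen encodes a nuclease that enhances apoptosis by digesting DNA. Aen (ENSMUSG00000030609, chr7:78895854-78911209, plus strand) was at 103, 101 and 104 CPM in WT and at 177, 178 and 208 CPM in the knockout. The WT libraries hardly differed and all knockout libraries were well above them. The means of 103 ± 1.67 and 188 ± 17.4 CPM (SD, n = 3) gave a log2 fold change of 0.87 (SE 0.0835, adjusted p = 0.00274), with an adjusted p of at most 0.0516 over the alternatives, with the Ddx3y term.

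Zmat3 encodes a zinc finger protein that binds RNA. Zmat3 (ENSMUSG00000027663, chr3:32334792-32366014, minus strand) was at 217, 223 and 211 CPM in WT and at 250, 254 and 253 CPM in the knockout. The groups did not overlap and the spread within each was small, so that the smallest fold change of the 10 (log2 0.22, SE 0.0610) had an adjusted p of 0.0356, lower than the 0.134 of Bax. Over all alternatives it ranged from 0.00186 to 0.226. Trp53inp1 was closest in profile to Eda2r (r = 0.995), Aen to Cdkn1a (r = 0.999) and Zmat3 to Trp53inp1 (r = 0.990).

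**Figure D3:**
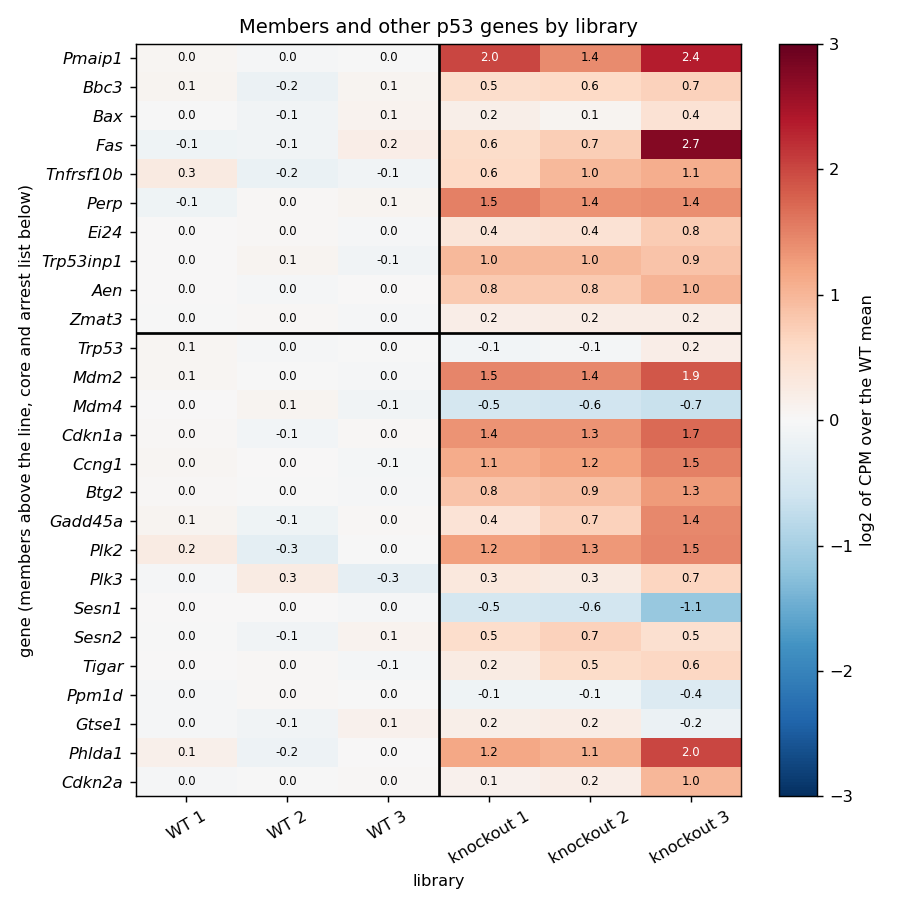
Log2 of each library's CPM over the WT mean for the 10 genes (rows above the line) and the 16 core p53 and arrest genes (rows below it) in the 6 libraries (columns), with red above and blue below the WT mean. The 3 knockout columns are above the WT mean in each of the upper 10 rows, with medians over the 10 genes of 0.58, 0.77 and 0.94 in replicates 1, 2 and 3.

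The knockout libraries differed in how far the 10 genes rose. The median log2 difference from the WT mean was 0.58 in knockout replicate 1, 0.77 in replicate 2 and 0.94 in replicate 3, and all 10 genes were above the WT mean in each. Replicate 3 was the highest knockout library in 7 of 10 genes (Pmaip1, Bbc3, Bax, Fas, Tnfrsf10b, Ei24 and Aen), against 43.8% of all genes, and not in Perp, Trp53inp1 and Zmat3. Knockout replicates 1 and 2 alone were above all WT libraries in 9 of 10 genes, against 33.4% of all genes. The highest over the lowest knockout library was 1.02 for Zmat3, 1.08 for Trp53inp1, 1.11 for Perp and Bbc3, 1.17 for Aen, 1.27 for Bax, 1.33 for Ei24, 1.41 for Tnfrsf10b, 1.92 for Pmaip1 and 4.56 for Fas. The same libraries differed in cell cycle genes, which summed to 1534 to 1608 CPM in WT whereas the knockout libraries had 655, 554 and 218 CPM in the order of their numbers. All 12 cell cycle genes had lower levels in the knockout, 4 of them at 0.01 (Tk1, Aurkb, Cdk1 and Rrm2, log2 -1.90, -1.77, -1.43 and -1.16) and 12 at 0.05, against 4.89% and 16.6% of all genes. At 0.01 the count was 12 by DESeq2, by the exact test and without knockout replicate 3, and 0 without knockout replicate 1 or 2. All 12 were lower at an unadjusted p below 0.05 without replicate 1 or 2, where 2872 of all 13548 and 2770 of all 13563 genes were. The part of cell division in the levels of the 10 genes was not tested.

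Levels of different genes were compared per length. In WT, on the scale of CPM per kilobase of the length listed in the count table, Ei24 was highest at 52.7 ± 0.957, followed by Trp53inp1 at 38.4 ± 2.36, Bax at 28.7 ± 2.14 and Zmat3 at 26.9 ± 0.731 (SD, n = 3). Bbc3 (21.3), Aen (19.97), Tnfrsf10b (19.3) and Perp (17.8) came next, and Fas (9.97) and Pmaip1 (6.34) were lowest. Bax and Zmat3 overlapped, as did each neighbor from Bbc3 to Perp, and the other neighbors did not. In the knockout, Ei24 (76.0 ± 11.8) and Trp53inp1 (73.7 ± 3.25) overlapped at the top, Perp was next and apart from both (47.6 ± 2.66; 17.8 ± 1.31 in WT), and from Aen (36.5 ± 3.38) down to Pmaip1 (24.9 ± 7.79) every gene overlapped its neighbor.

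**Figure D4:**
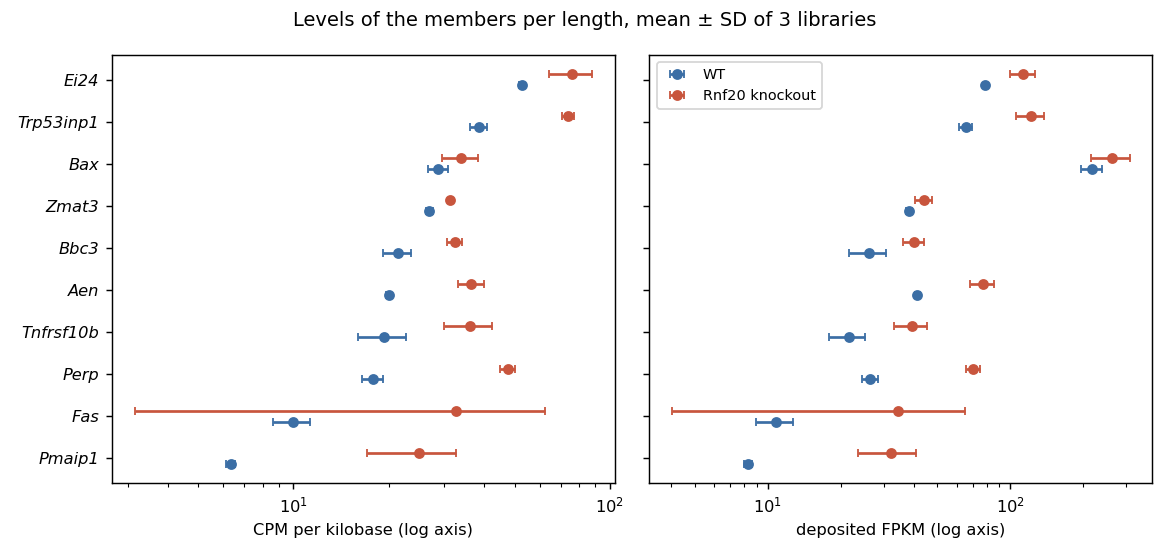
Mean level of each of the 10 genes in WT (blue) and Rnf20 knockout libraries (red) in CPM per kilobase (left) and in deposited FPKM (right), both on log axes, with SD over 3 libraries as bars. Bax lies below Ei24 and Trp53inp1 by CPM per kilobase in WT (28.7) and above all others by FPKM (217), while Ei24 and Trp53inp1 are at or near the top on both scales.

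Deposited FPKM put Bax at the top of the order. It was at 217 ± 21.0 FPKM in WT and 263 ± 47.1 in the knockout, above all other genes of the group, and Ei24 followed at 78.8 in WT and 112 in the knockout. In WT, FPKM over CPM per kilobase was 7.57 for Bax and 1.09 to 2.07 for the other genes. The length listed for Bax in the count table was 5323 bases, longer than the 5202 bases from start to end of the gene in GENCODE M21.

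To see whether other parts of the p53 response differed in the same cells, related lists were counted in the same fit. Of 16 core p53 genes and arrest targets, 7 were higher and 1 lower at 0.01, against 4.98% and 4.89% of all genes. Their median log2 fold change was 0.53. Of the 16, 3 passed without knockout replicate 1, 3 without replicate 2 and 10 without replicate 3, where 149, 88 and 4485 of all genes passed. Mdm2, the ubiquitin ligase that degrades p53, was at 133, 126 and 125 CPM in WT and 353, 350 and 467 CPM in the knockout (log2 1.60, SE 0.127, adjusted p = 0.00178). Cdkn1a (p21), the inhibitor of cyclin-dependent kinases, was at 479, 439 and 477 CPM in WT and 1186, 1180 and 1508 CPM in the knockout (log2 1.47, SE 0.119, adjusted p = 0.00182). Both were separated between the groups in every library. Phlda1 (log2 1.48) and Plk2 (log2 1.33), a polo-like kinase, were higher too, and Mdm4, an inhibitor of p53, was the 1 lower gene at 0.01 (log2 -0.59, SE 0.0780, adjusted p = 0.00474). At 0.05, 9 of the 16 were higher and 2 lower, against 16.4% and 16.6% of all genes. The other lower gene was Sesn1 (log2 -0.71, SE 0.168, adjusted p = 0.0210), with all knockout libraries below WT. Trp53, which encodes p53, was at 150, 142 and 143 CPM in WT and 137, 139 and 166 CPM in the knockout, so that the groups overlapped (log2 0.02, SE 0.0924, adjusted p = 0.888), and the sign turned in 4 of the alternatives, among them scaling by library size alone. Transcript levels say nothing of p53 protein.

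Other p53 targets were counted by their roles. Of 11 other p53 death targets tested, 2 passed 0.01, Phlda3 (log2 0.84, SE 0.0828, adjusted p = 0.00287), an inhibitor of Akt, and Eda2r (log2 0.54, SE 0.0750, adjusted p = 0.00533), a receptor of the TNF receptor family, both higher, and the median was 0.30. At 0.05, 3 were higher and 1 lower, against 16.4% and 16.6% of all genes. The lower gene was Steap3 (log2 -0.78, SE 0.216, adjusted p = 0.0342), with all knockout libraries below WT. Of 10 p53 targets in DNA repair, 1 passed, Pcna, the sliding clamp of DNA replication (log2 -1.08, SE 0.169, adjusted p = 0.00699), which was lower, and the median was -0.23. With 9.88% of all genes called in either direction, 1 of 10 is close to the background. Without knockout replicate 3, 4 of the death targets and 3 of the repair targets passed, where 4485 of all 13529 genes passed. Without knockout replicate 1 or 2 none of either list did, where 149 and 88 of all genes passed. At an unadjusted p below 0.05, 5 of 11 death targets were higher and 1 lower without replicate 1. Without replicate 2, 6 of 12 were higher and 1 lower. Of 10 repair targets, 2 were higher in both fits, and 2 and 3 were lower. Among all genes, 3019 of 13548 were higher and 2872 lower without replicate 1. The numbers without replicate 2 were 2973 and 2770 of 13563. Pcna is also a gene of proliferating cells.

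**Figure D5:**
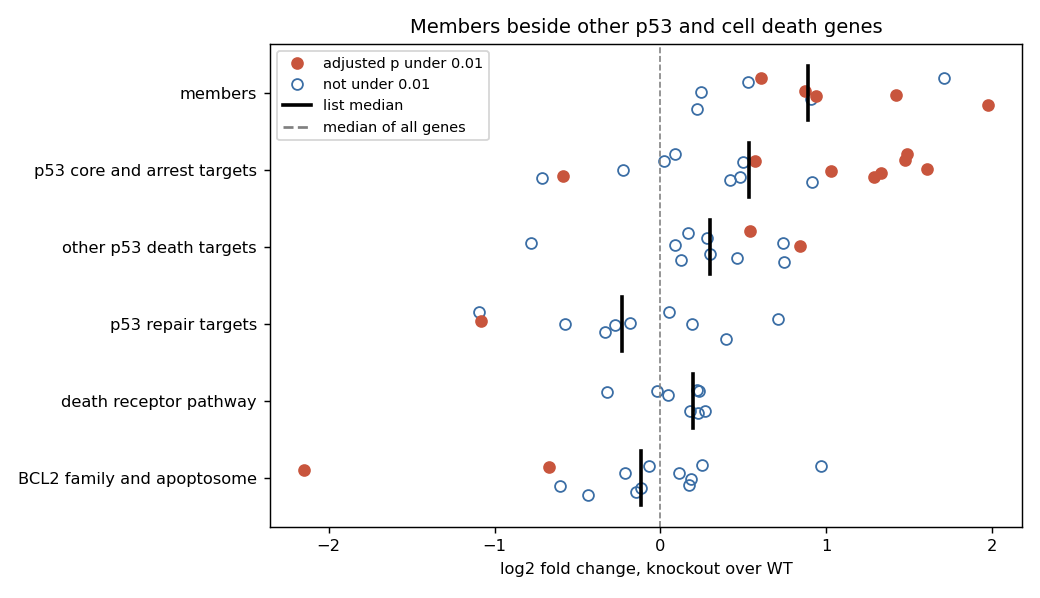
Log2 fold change of Rnf20 knockout over WT for each tested gene of the 10 described genes (members) and of the related lists, filled where the adjusted p was under 0.01 and open otherwise, with the list median as a black line and the median of all genes dashed. The 10 genes have a median of 0.89 and all lie above 0. So do 10 of the 11 other p53 death targets and 13 of the 16 core and arrest genes. The BCL2 family and apoptosome list has a median of -0.12 and spans both signs, with 5 of 13 above 0.

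The list of the BCL2 family and apoptosome, through which Bax, Bbc3 and Pmaip1 act, held lower as well as higher genes. It left out members already counted elsewhere. These were Bax, Bbc3 and Pmaip1 themselves, and Bid (log2 0.30) and Apaf1 (log2 0.09) among the other p53 death targets, all with fold changes above 0. Of 13 genes tested, 2 passed 0.01, both lower: Bmf, another BH3-only gene that is not in the p53 lists, fell from 19.5, 20.3 and 19.6 CPM to 4.68, 5.56 and 3.14 CPM (log2 -2.15, SE 0.203, adjusted p = 0.00261), and Casp9, the caspase of the apoptosome, fell by 0.67 on the log2 scale (SE 0.117, adjusted p = 0.00902). Of all genes, 9.88% passed 0.01 in either direction and 4.89% were lower. At 0.05, 1 of the 13 was higher and 4 were lower, against 16.4% and 16.6% of all genes. Without knockout replicate 1, 0 of the 13 passed 0.01 (2 higher and 4 lower at an unadjusted p below 0.05). Of all 13548 genes in that fit, 3019 were higher and 2872 lower at the unadjusted p. Without replicate 2, 1 of the 13 passed 0.01 and without replicate 3, 6 did. In these 3 fits 149, 88 and 4485 of all genes passed. The 1 higher gene at 0.05, named after its value was seen, was the anti-apoptotic Bcl2l1, at 39.7, 40.8 and 46.9 CPM in WT and 70.5, 68.4 and 110 CPM in the knockout (log2 0.97, SE 0.197, adjusted p = 0.0139). Beside Bmf and Casp9, the lower genes at 0.05 were Bcl2l11 (log2 -0.44, SE 0.112, adjusted p = 0.0269) and Bok (log2 -0.60, SE 0.171, adjusted p = 0.0367), also named after their values were seen.

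By the stricter thresholds of the study, which add an absolute log2 fold change above 1 and an FPKM above 1, read here as the mean of at least 1 group, 2 of the 10 genes were higher, Pmaip1 and Perp, against 1.5% of all genes tested. Fas exceeded the fold limit but missed the p, and Trp53inp1 and Aen passed the p with log2 fold changes of 0.94 and 0.87. Without any 1 WT library 0 genes passed these thresholds, since none of the 10 passed 0.01 there, and without knockout replicate 1 the number was 1.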

How the data were processed

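RNA-seq libraries of 3 WT and 3 Rnf20 knockout samples were compared, with groups taken from the sample labels. The authors aligned reads with HISAT2 2.1.0 to GRCm38 (mm10) and, per the submitters' processing notes, used Cufflinks 2.1.1. They deposited raw counts per gene (16982 genes) and FPKM values (12633 genes). The fold change, p-value and duplicate count columns in the deposited tables were not used. Whether counting used strand is not given in the sources used here.

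Counts were tested with the quasi-likelihood test of edgeR 4.0.16 (R 4.3.3) after TMM normalization and filterByExpr, with no covariates, on 13386 genes, and Benjamini-Hochberg adjustment of the p-values covered all of them. An adjusted p below 0.01 was the threshold of the study. The SE is the log2 fold change over the square root of F. DESeq2 1.42.0, the edgeR exact test and limma 3.58.1 on log2(FPKM + 1) of the deposited FPKM values were alternatives, as were other filters and scalings, a replicate block, a term for Ddx3y and leaving out each library. Depths were 20545442 to 21746898 counts per library, and 3 counts, a floor for detection, correspond to 0.142 to 0.143 CPM. Gene positions and exon overlaps come from GENCODE M21. Named genes were the 10 genes, Rnf20, Trp53, Mdm2 and Cdkn1a, in each list at most 4 genes with the largest change at 0.01 or else the 2 lowest p-values, and for each of the 10 the closest profile. The genes and lists were chosen with earlier results of these data known.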

Additional observations from a re-analysis of the deposited data

How the results depend on the processing

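All 10 fold changes kept their direction in every alternative. The number of the 10 genes higher at 0.01, 5 in the report, was 8 by DESeq2, 8 at an adjusted p under 0.05, 0 with a replicate block, 0 with the Ddx3y term, and 0 to 9 with 1 library left out. Core p53 and arrest genes (8) numbered 0 with the block, 0 with the Ddx3y term and 0 to 10 with 1 library left out. Other p53 death targets (2) numbered 1 by limma, 0 with the block or the Ddx3y term, 4 at 0.05 and 0 to 4 with 1 library left out. Repair targets (1) numbered 3 by DESeq2, by the exact test and at 0.05, 0 with the block or the Ddx3y term, and 0 to 3 with 1 library left out. The death receptor pathway (0) numbered 1 by DESeq2 and at 0.05 and 0 to 2 with 1 library left out. The BCL2 list (2) numbered 4 by DESeq2, 1 by limma, 5 at 0.05, 0 with the block or the Ddx3y term and 0 to 6 with 1 library left out. By the thresholds of the study (2), 0 passed with the block, 0 with the Ddx3y term and 0 to 2 with 1 library left out. Trp53 changed sign to -0.042 with library size only, -0.036 by limma, -0.068 with the Ddx3y term and -0.074 without knockout replicate 3 (-0.074 to 0.073 with 1 library left out). The cause of these changes was not tested.

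With the block, 7 of the 10 genes passed 0.05 and 10 were higher at an unadjusted p below 0.05, where 1385 and 2694 of all 13386 genes were higher, and 0 of all genes passed 0.01. The replicate numbers are only shared numbers: deviations of same-numbered libraries correlated at -0.0656, 0.0366 and 0.0109, and not every library was most like its own number. Over all genes, 1322 passed 0.01 in the reported fit, 3597 by DESeq2, 2905 by the exact test and 1 to 4485 with 1 library left out. The ligands Fasl and Tnfsf10 had at most 4 counts in a library, and whether depth limited them was not tested.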
